A study of Mus musculus with 15 samples.

Results

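The genes described are 9 markers of macrophages in general and of macrophages recruited to a tissue: Aif1, Cd68, Csf1r, Apoe, Fn1, Trem2, Gpnmb, Lgals3 and Adgre1. The genes were given by name, and a probe counted as a member where the platform annotation gave it exactly 1 of these symbols. This found 6 probes, 1 each for Aif1, Adgre1, Apoe, Trem2, Gpnmb and Fn1, among 17195 probes that were no control spots. No listed probe carried Cd68, Csf1r or Lgals3, so these 3 genes were not analysed here.

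The samples were 15 total RNAs of mouse alveolar macrophages, the resident phagocytes of the airspaces, each hybridised on a 2-colour array with a common reference RNA labelled as macrophage. They formed 3 groups of 5 arrays. The first was integrin beta6 deficient mice carrying TGFb1 (labelled b6-/-TGFb+/+Dox), the second integrin beta6 deficient mice (b6-/-Dox, called beta6 null), and the third wild type mice (b6+/+Dox). All 3 groups had received doxycycline, an antibiotic that switches inducible transgenes. The labels name neither the promoter nor the cell type that drives TGFb1, give no age, and do not say whether an array holds 1 animal or a pool, so p-values measure the spread between arrays, which may be technical. A wild type group with TGFb1 was not analysed here.

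Values are log ratios read as log2 of sample over reference, after each array was centred on its median. The base and the direction are stated nowhere in the sources used here. Base 2 and this direction are the likely reading: the labels list the reference RNA as channel 1, and Mmp12, macrophage elastase, is known for rising in beta6 null mice. Were the ratio inverted, every sign below would turn. Because the reference is itself macrophage RNA, a ratio does not give the level of a marker, and the labelled cell type could not be checked from the ratios. The arrays held 11615 to 16483 values of 17225 probes, with SDs from 0.841 to 2.008. The widest were wild type replicate 2 and beta6 null replicate 1, which also had the most spots without a value (5511 and 5610). Xist, a noncoding RNA made from the inactive X, ran from -3.48 to -2.27 with TGFb1, from -2.46 to 0.88 in beta6 null and from -4.14 to -2.37 in wild type, so it moved with the beta6 null group. The sex of the animals was not used here. Its mean was -3.07 with TGFb1, where beta6 is also lacking, -0.4 in beta6 null and -3.1 in wild type. In beta6 null against wild type, what goes with Xist and what goes with beta6 cannot be told apart. With TGFb1 against beta6 null, what goes with Xist and what goes with TGFb1 cannot be told apart. The part of Xist in the results was not tested beyond the fits that add its level to the model. Because its level goes with the group, such a fit widens the SEs, so a call lost there does not separate Xist from the group.

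The integrin alphavbeta6 of lung epithelium releases TGFb from its latent form, and TGFb signalling holds macrophages in check and supports the alveolar macrophage identity. Markers used to tell macrophage states include surface and cytoplasmic proteins found on most macrophages, such as F4/80 (encoded by Adgre1), CD68, the CSF1 receptor and the actin-bundling protein Iba1 (encoded by Aif1). Others are read as signs of cells recently derived from monocytes or loaded with lipid, such as TREM2, apolipoprotein E, GPNMB, galectin-3 and fibronectin. The comparisons ask whether these markers differ between the groups and whether those of recruited macrophages follow Aif1.

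Promoter sequences are shown for Aif1, the member with the clearest difference between groups, and for Trem2, a recruited-macrophage marker on the same chromosome for which no difference or relation to Aif1 passed a test. Each window holds the 250 bases before a RefSeq start site on GRCm38.p6, at chr17:35176053-35176302 on the minus strand for Aif1 and at chr17:48346151-48346400 on the plus strand for Trem2. Capitals mark matches, on either strand, to the PU.1 core GAGGAA, the C/EBP motif TTGCNNAA, the AP-1 motif TGANTCA, the E-box CACGTG or the SMAD motif CAGAC.
Aif1: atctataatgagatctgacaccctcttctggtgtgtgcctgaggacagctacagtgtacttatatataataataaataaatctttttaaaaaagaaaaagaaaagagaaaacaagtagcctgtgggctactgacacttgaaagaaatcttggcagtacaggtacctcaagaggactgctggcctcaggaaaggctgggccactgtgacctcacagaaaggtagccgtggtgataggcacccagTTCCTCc
Trem2: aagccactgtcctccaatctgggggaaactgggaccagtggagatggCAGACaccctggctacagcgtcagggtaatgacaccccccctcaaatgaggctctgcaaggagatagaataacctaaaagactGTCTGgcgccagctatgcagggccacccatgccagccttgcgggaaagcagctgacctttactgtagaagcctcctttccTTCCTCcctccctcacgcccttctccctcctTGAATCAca
The Aif1 window held 1 PU.1 core, whose first base lay 7 bases before the start, and no match to the other motifs. The annotated Aif1 gene reaches to 35176083, so the window overlaps it, and this match lies before the start site used but inside the gene. The Trem2 window held 1 PU.1 core, 1 AP-1 match and 2 SMAD matches. Of 32851 promoter windows of the same length, 23.3% held the PU.1 core, 9.56% the C/EBP motif, 6.75% the AP-1 motif, 6.02% the E-box and 42.2% the SMAD motif. The Gpnmb window held no match, and Apoe had 3 windows with a PU.1 core in 2 of them and a SMAD match in 1. RefSeq windows were found for 4 of the 6 measured members, and Adgre1 and Fn1 were not matched. A match describes these letters and shows no binding.

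Aif1 was the 1 member that passed the test. It encodes an actin-bundling, calcium-binding protein of macrophages and microglia. Its log2 ratio was -2.51, -0.79, -0.66, 0.46 and 0.57 on the arrays with TGFb1, 1.90, 2.38, 2.41, 3.06 and 3.32 on the beta6 null arrays, and -1.07, -0.01, 0.56 and 1.87 on the 4 wild type arrays with a value. All 5 beta6 null arrays lay above every array of both other groups, though the lowest of them, at 1.90, stood next to the highest wild type array, at 1.87. The arrays with TGFb1 and those of wild type overlapped.

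With TGFb1, Aif1 fell to -0.58 ± 1.24 (SD, n = 5), against 2.62 ± 0.57 (n = 5) in beta6 null. The difference was -3.20 (SE 0.62, adjusted p = 0.0332 by limma over all features, 95% confidence interval -4.53 to -1.88), a level 9.2-fold lower. In this comparison 94 of 13273 features (0.708%) passed, 0.128% in the lower direction, and 1.91% of features had all arrays with TGFb1 below all beta6 null arrays. The call ended under 10 alternatives: in 6 of the 15 fits that left out 1 array (without TGFb1 replicate 1, 3 or 4, or beta6 null replicate 1, 2 or 3, adjusted p up to 0.103), under quantile normalization (0.0939), after scaling all arrays to 1 spread (0.117), without TGFb1 replicate 5 and beta6 null replicate 4, whose title numbers lie apart from the others (0.0616), and after adding Xist to the model (0.554). The difference stayed between -3.64 and -2.60 throughout.

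In beta6 null against wild type the 2 groups differed by 2.28 (SE 0.66, 95% confidence interval 0.87 to 3.69), with 2.62 ± 0.57 (SD, n = 5) in beta6 null and 0.34 ± 1.22 (n = 4) in wild type. This did not pass over all features (adjusted p = 0.149, and 0.095 to 0.746 over its alternatives). Higher values without overlap were seen in 2.06% of features. The exact two-sided permutation test of Aif1 by itself gave p = 0.0159, the smallest that 5 against 4 arrays can give, and 0.00794 for TGFb1 against beta6 null, the smallest for 5 against 5. After adjustment over the 3 comparisons both were 0.0238. Because Aif1 was named with an earlier result on it known, these values are no independent evidence. With TGFb1 against wild type the difference was -0.92 (SE 0.66, adjusted p = 0.831, exact permutation p = 0.349), and -1.39 to -0.41 without 1 array (-0.41 without wild type replicate 3, -0.44 without TGFb1 replicate 4 and -1.39 without wild type replicate 1).

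The array titles carry a suffix of 1 or 2 whose meaning the labels do not give. Among arrays with suffix 1, Aif1 averaged -0.87 with TGFb1 (n = 3), 2.66 in beta6 null (n = 4) and -0.26 in wild type (n = 2). Among those with suffix 2 it averaged -0.16 with TGFb1 (n = 2), 2.41 on the 1 beta6 null array and 0.93 in wild type (n = 2). The beta6 null level was the highest within each suffix. In these bulk samples, fewer cells with Aif1 and less Aif1 RNA per cell cannot be told apart.

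**Figure D1:**
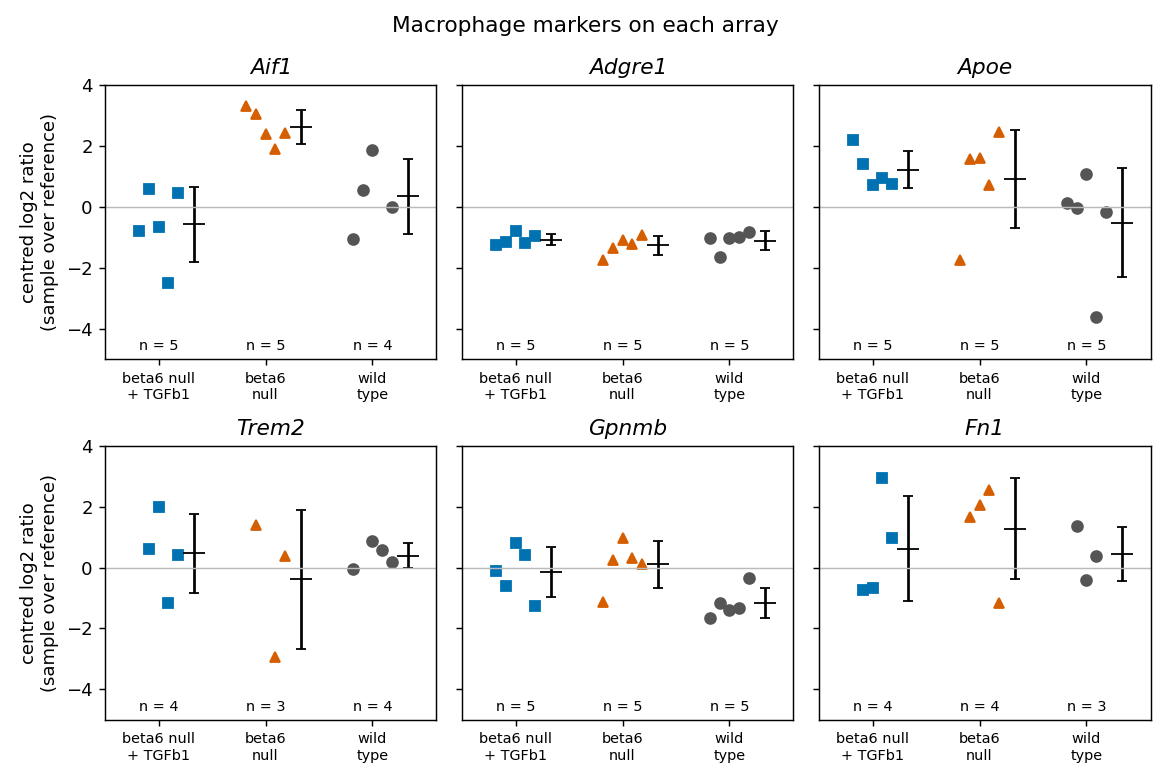
Centred log2 ratio (vertical axis) of the 6 measured markers on each array, with squares for beta6 null with TGFb1, triangles for beta6 null and circles for wild type. Bars give the mean and SD, and n counts arrays with a value. For Aif1 the 5 beta6 null arrays sit between 1.90 and 3.32, above every other array, while for the other 5 markers the groups overlap.

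Adgre1, which encodes F4/80, the standard surface marker of mouse macrophages, barely varied. It lay at -1.27, -1.20, -1.16, -0.96 and -0.81 with TGFb1, at -1.74, -1.34, -1.21, -1.09 and -0.94 in beta6 null, and at -1.65, -1.04, -1.02, -1.0 and -0.84 in wild type. All 15 arrays were below the median feature of their array, and the 3 groups overlapped almost fully. Its SD within groups was 0.27, against a median of 0.78 over tested features, and 2.77% of features had a smaller one. Its difference was -0.15 in beta6 null against wild type (95% confidence interval -0.67 to 0.36) and 0.18 with TGFb1 against beta6 null (-0.33 to 0.70). Both signs turned under quantile normalization and after scaling all arrays to 1 spread, so no direction is given.

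Apoe encodes apolipoprotein E, the lipid carrier that macrophages secrete. It lay at 0.73, 0.76, 0.95, 1.40 and 2.20 with TGFb1, at -1.76, 0.71, 1.56, 1.60 and 2.45 in beta6 null, and at -3.62, -0.16, -0.03, 0.12 and 1.08 in wild type. Every TGFb1 array and 4 of 5 beta6 null arrays were above 0, against 2 of 5 wild type arrays, but 1 array of beta6 null and 1 of wild type stood far below the rest. Apoe did not pass in beta6 null against wild type (difference 1.43, SE 0.84, adjusted p = 0.526) or with TGFb1 against wild type (1.73, SE 0.84, adjusted p = 0.801). Without wild type replicate 4 those differences were 0.66 and 0.95. Over all alternatives the difference of beta6 null and wild type ran from 0.66 to 2.67 (with array weights). Between TGFb1 and beta6 null Apoe differed by 0.30 (95% confidence interval -1.49 to 2.09), and by -0.37 without beta6 null replicate 1, 1 of the 2 widest arrays.

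Trem2 encodes a lipid-sensing receptor of macrophages that signals through the adaptor TYROBP. Its probe had a value on 11 arrays: -1.16, 0.40, 0.62 and 2.0 with TGFb1, -2.94, 0.39 and 1.39 in beta6 null, and -0.04, 0.17, 0.57 and 0.86 in wild type. The 3 beta6 null values spanned 4.33, wider than either other group. Trem2 differed by -0.78 in beta6 null against wild type (95% confidence interval -2.88 to 1.32) and by 0.85 with TGFb1 against beta6 null (-1.25 to 2.96). These intervals hold changes in both directions of more than 2-fold, so neither a rise nor a fall of that size can be told from no change with these arrays. After adding Xist to the model the differences were -3.27 (adjusted p = 0.655) and 3.23 (adjusted p = 0.55), and with array weights the first was -1.29. The second was 0.34 without TGFb1 replicate 3 and 1.39 without TGFb1 replicate 4.

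Gpnmb encodes a transmembrane glycoprotein of lipid-laden and phagocytic macrophages. It lay at -1.26, -0.61, -0.11, 0.41 and 0.82 with TGFb1, at -1.14, 0.13, 0.26, 0.32 and 0.97 in beta6 null, and at -1.65, -1.38, -1.34, -1.15 and -0.36 in wild type. No wild type array was above 0, against 4 of 5 beta6 null arrays and 2 of 5 with TGFb1, and the beta6 null array was the higher one in 24 of 25 pairs with wild type. The difference was 1.28 in beta6 null against wild type (SE 0.44, unadjusted p = 0.0111, adjusted p = 0.253) and 1.02 with TGFb1 against wild type (SE 0.44, unadjusted p = 0.0353, adjusted p = 0.787), neither of which passed. Between TGFb1 and beta6 null it was -0.26 (95% confidence interval -1.20 to 0.68). Of all features, 4.4% rose as much as Gpnmb or more in beta6 null against wild type, and 6.66% with TGFb1 against wild type.

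Fn1 encodes fibronectin, a matrix protein that recruited macrophages make and that fibroblasts and epithelium make too. Its probe had a value on 11 arrays: -0.73, -0.67, 0.96 and 2.93 with TGFb1, -1.16, 1.67, 2.04 and 2.54 in beta6 null, and -0.41, 0.37 and 1.36 in wild type. The groups overlapped, and the array with TGFb1 that was lowest for Aif1 (-2.51) was highest for Fn1 (2.93). Fn1 differed by 0.83 in beta6 null against wild type (SE 1.04, adjusted p = 0.789) and by -0.65 with TGFb1 against beta6 null (SE 0.96, adjusted p = 0.804). Without 1 array the first ran from 0.41 (without beta6 null replicate 4) to 1.64 (without beta6 null replicate 5). The second ran from -0.20 (without TGFb1 replicate 2) to -1.46 (without beta6 null replicate 5), with -0.22 and -1.42 without TGFb1 replicates 3 and 4 and -0.40 and -0.23 without beta6 null replicates 3 and 4. After adding Xist to the model they were 1.96 and -1.89, and with array weights the second was -0.03, so the size of neither is settled. Spots of both Fn1 and Trem2 were without a value on TGFb1 replicate 1 and beta6 null replicate 1.

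Across the members, 0 of 6 passed limma in beta6 null against wild type, where 0.949% of features passed. With TGFb1 against beta6 null 1 of 6 passed, against 0.708% of features. With TGFb1 against wild type 0 of 6 passed, and 0% of features did (833 of 13273, or 6.28%, at an unadjusted p under 0.05). At an unadjusted p under 0.05 the members were 2, 1 and 1 of 6, against 11.5%, 15% and 6.28% of features. The median difference of the 6 was 1.06 in beta6 null against wild type and -0.04 with TGFb1 against beta6 null, beside -0.047 and 0.117 over all features. Without Aif1 the medians of the other members were 0.83 and 0.18. The beta6 null arrays enter both comparisons, so these values share samples.

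**Figure D2:**
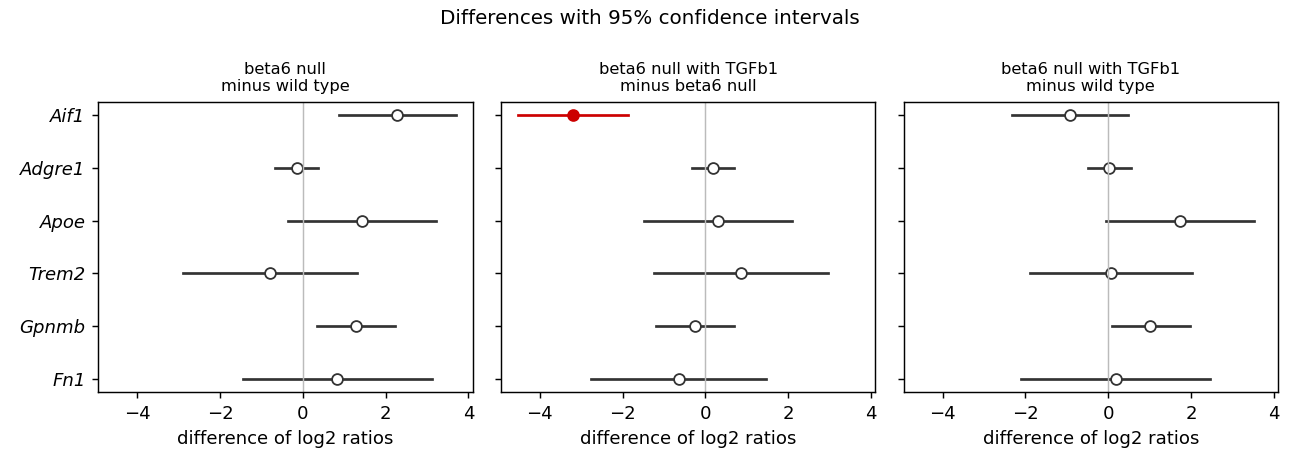
Differences of centred log2 ratios (horizontal axis) for each marker in the 3 comparisons, with 95% confidence intervals as lines. The filled point is the 1 difference that passed, Aif1 with TGFb1 minus beta6 null at -3.20, and the intervals of Apoe, Trem2 and Fn1 are over 3 log2 units wide.

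The difference between Aif1 and each other marker was then taken on the same array and compared between the groups, a step chosen after the values were seen. Aif1 minus Adgre1 averaged 0.49 ± 1.20 (SD, n = 5) with TGFb1, against 3.88 ± 0.82 (n = 5) in beta6 null, and in wild type 1.48 ± 1.32 (n = 4). Aif1 minus Apoe averaged -1.79 ± 1.37 with TGFb1 and 1.70 ± 1.98 in beta6 null (n = 5 each). Aif1 minus Gpnmb averaged -0.43 ± 1.91 with TGFb1 and 2.51 ± 1.23 in beta6 null. The exact two-sided permutation p of TGFb1 against beta6 null was 0.00794 for both Adgre1 and Apoe, the smallest that 5 against 5 arrays can give, and 0.0238 for Gpnmb. After adjustment over the 15 tests made these were 0.0595, 0.0595 and 0.0893, so none passed. As the p for Adgre1 and Apoe was already the smallest possible, the number of arrays and of tests limits this outcome. Aif1 by itself already had that p in this comparison (0.00794 by the exact permutation test). Adgre1 barely varied, so Aif1 minus Adgre1 largely repeats the values of Aif1. Between TGFb1 and beta6 null Apoe differed by 0.30 and Gpnmb by -0.26, beside -3.20 for Aif1. Their differences from Aif1 thus mostly carry that of Aif1 and are no separate evidence. For Trem2 (-3.85, exact permutation p = 0.0571 with 4 against 3 arrays) the design cannot reach the threshold, and for Fn1 the p was 0.257. In beta6 null against wild type, Aif1 minus the marker differed by 2.4 for Adgre1 (exact permutation p = 0.0159), 1.62 for Apoe (0.127) and 1.04 for Gpnmb (0.27). It differed by 2.92 for Trem2 (0.1, 3 against 3 arrays) and 0.43 for Fn1 (0.8, 4 against 2 arrays). In that comparison Aif1 was thus not set apart from Apoe, Gpnmb, Trem2 or Fn1.

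Over the arrays, no relation of the 5 other markers to Aif1 passed a test. Pearson's r with Aif1 was -0.31 for Adgre1 (n = 14), -0.05 for Apoe (n = 14), 0.11 for Trem2 (n = 10), 0.02 for Gpnmb (n = 14) and -0.15 for Fn1 (n = 10). The permutation p ran from 0.276 to 0.958, and all 5 were 0.958 after adjustment over the 5 relations. Spearman's rho was -0.31, 0.14, 0.27, 0.09 and -0.09 in the same order, with permutation p from 0.288 to 0.811. Over 12937 features with at least 10 arrays in common with Aif1, the median r was -0.06 and the quartiles -0.34 and 0.22, so all 5 markers lay between the quartiles. After scaling all arrays to 1 spread the quartiles were -0.31 and 0.18, and Fn1 (-0.39), Apoe (0.20) and Adgre1 (0.23) lay outside them. Without the 2 arrays farthest from the median of Aif1, r was -0.18 for Adgre1, 0.43 for Apoe, -0.38 for Trem2, 0.35 for Gpnmb and 0.17 for Fn1, with adjusted permutation p from 0.63 to 0.668.

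With the group means taken out, r was -0.12 for Adgre1, -0.02 for Apoe, 0.53 for Trem2, -0.46 for Gpnmb and -0.60 for Fn1. The permutation p within groups was 0.0592 for Trem2, 0.0971 for Fn1 and 0.122 for Gpnmb, each 0.204 after adjustment. Over all features the quartiles were then -0.18 and 0.20, so these 3 markers lay outside them: 3.06% of features had a higher r than Trem2, 96.1% a higher one than Gpnmb and 98.9% a higher one than Fn1. Within groups of 5 no separate correlation was computed. These relations rest on 10 to 14 arrays, and a p that misses the threshold does not show that the markers are unrelated.

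**Figure D3:**
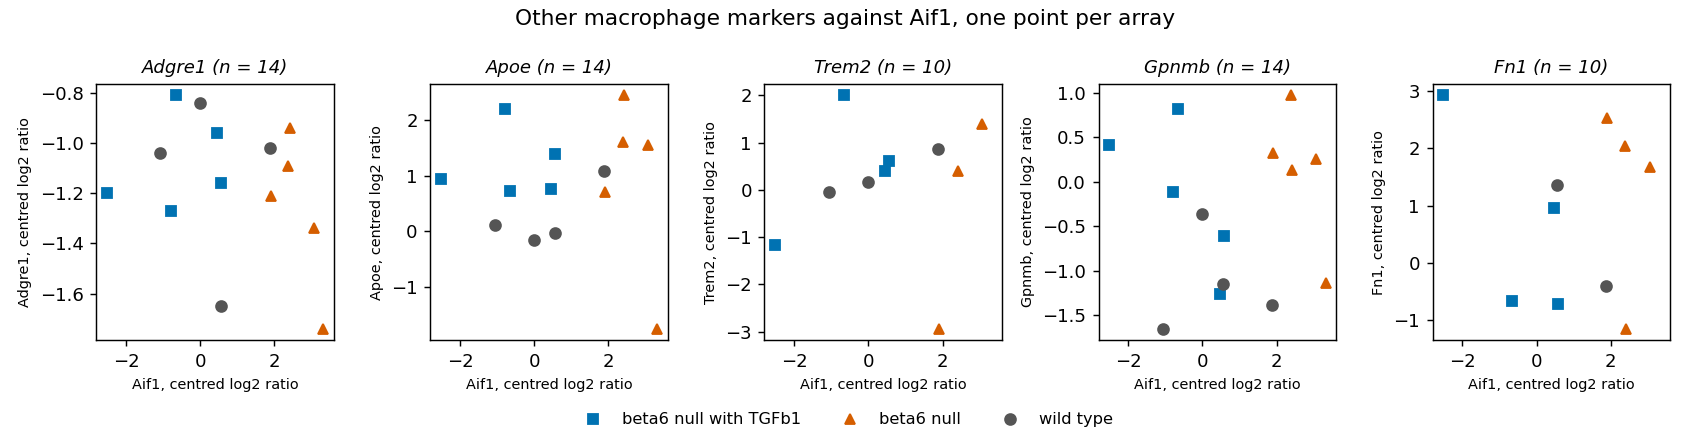
Centred log2 ratio of each other marker (vertical axis, with its own scale in each panel) against that of Aif1 (horizontal axis), 1 point for each array with both values. The beta6 null triangles lie to the right in every panel, and the vertical positions of the groups overlap. The beta6 null array at -2.94 for Trem2 and the array with TGFb1 at 2.93 for Fn1 lie far from the others.

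The genes whose pattern was most like that of Aif1, by Pearson's r over its 14 arrays among 5513 genes with a value on all of them, were Myct1 (r = 0.811), Ly86 (0.792), Klrb1b (0.789), Lamc1 (0.786) and Bco1 (0.785). Ly86 encodes a partner of an innate immune receptor on myeloid and B cells, Klrb1b a lectin-like receptor of natural killer cells, Lamc1 a laminin chain and Bco1 an enzyme that splits carotenoids. Of these, Klrb1b passed in beta6 null against wild type (1.34, adjusted p = 0.0335), and none passed with TGFb1 against beta6 null. That call rests on the mean of 2 probes that disagree: the probe with most values differed by 0.22 (adjusted p = 0.742) and the other by 2.26, with an r with Aif1 of 0.47 and 0.65. The call was also lost in 5 of 15 fits without 1 array, the highest adjusted p being 0.0912. The other 4 genes have 1 probe each. With the group means taken out, their r with Aif1 was 0.27 to 0.61.

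In a wider list of markers of recruited or monocyte-derived macrophages some genes passed. Of 33 genes listed, 26 were tested. In beta6 null against wild type 5 rose, 0 fell and 21 did not pass, with 23 of 26 above 0 and a median difference of 0.59, beside -0.047 over all features, of which 0.362% rose and 0.588% fell. The 5 were Mmp12 (4.31, SE 0.42), the cysteine proteases Ctsk (2.68, SE 0.46) and Ctsb (1.58, SE 0.35), Gas6, a bridge to dying cells (2.88, SE 0.61), and Fabp5, a fatty acid-binding protein (2.10, SE 0.23). Without 1 array, Mmp12, Fabp5 and Ctsk passed in 15 of 15 fits, while Ctsb (adjusted p = 0.0461) lost its call in 14 and Gas6 (adjusted p = 0.0409) in 13. Without the 2 widest arrays Gas6 was at 2.03 (adjusted p = 0.0999). Ccr2, the receptor that brings monocytes into tissue, did not pass (1.04, SE 0.82, adjusted p = 0.649), nor did Ly6c1, a Ly6C gene that endothelial cells and lymphocytes also express (3.68, SE 0.97, adjusted p = 0.118). With TGFb1 against beta6 null 0 rose and 2 fell, Mmp12 (-2.31, SE 0.40) and Fabp5 (-1.17, SE 0.23). The median was -0.76, beside 0.117 over all features, of which 0.58% rose and 0.128% fell. Of 15 fits without 1 array, Mmp12 lost this call in 2 and Fabp5 in 8. Ccr2 then differed by -2.02 (SE 0.78, adjusted p = 0.241).

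These counts moved with the settings, from 0 to 7 rises in beta6 null against wild type and from 0 to 5 falls with TGFb1 against beta6 null. The 5 rises were 6 without the 2 widest arrays, 3 without the 2 arrays whose title numbers lie apart and 0 after adding Xist to the model, and the 2 falls were 4, 0 and 0. The members of this list were chosen with earlier results known, and Mmp12 also served to choose the direction of the ratio. The mean ratio of the 26 genes ran from -0.27 to 0.61 with TGFb1, from 0.53 to 1.14 in beta6 null and from -0.46 to -0.09 in wild type, so the TGFb1 and beta6 null arrays overlapped slightly and the beta6 null and wild type arrays did not. Of the 26 genes, 19 had a positive r with Aif1, with a median of 0.37. With the group means taken out 13 of 26 were positive and the median was 0.01, so the positive median was not seen within the groups. A positive r was not particular to this list: markers of dendritic cells and of lymphocytes had higher medians, at 0.54 and 0.44.

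Among markers of resident alveolar macrophages the calls ran the other way. This list, too, was chosen with earlier results of these data known, so its counts are no independent evidence. Of 20 listed and 15 tested, 5 fell in beta6 null against wild type (Fabp1 -3.27, Olr1 -3.06, Il18 -2.12, Krt19 -2.01 and Cidec -1.35) and 10 did not pass, with a median of -1.35. Of all features, 0.588% fell in that comparison. With TGFb1 against beta6 null 5 rose (Olr1 2.84, Fabp1 2.53, Il18 2.46, Krt19 2.37 and Pparg 1.84) and 10 did not pass, with a median of 1.62, where 0.58% of features rose. None of the 14 with enough arrays had a positive r with Aif1 (median -0.53), and with the group means taken out the median was -0.02 and 7 of 14 were positive. Siglecf, the defining surface lectin of these cells, differed by -1.98 in beta6 null against wild type (SE 0.64, adjusted p = 0.223). Without the 2 widest arrays the counts were again 5 and 5, and after adding Xist to the model 0 and 0. After scaling all arrays to 1 spread they were 2 and 0. Fabp1, Olr1 and Il18 passed in all fits without 1 array in both comparisons. In these fits Cidec lost its call in 3 and Krt19 in 5 in beta6 null against wild type, and Krt19 lost it in 2 and Pparg in 6 with TGFb1 against beta6 null.

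**Figure D4:**
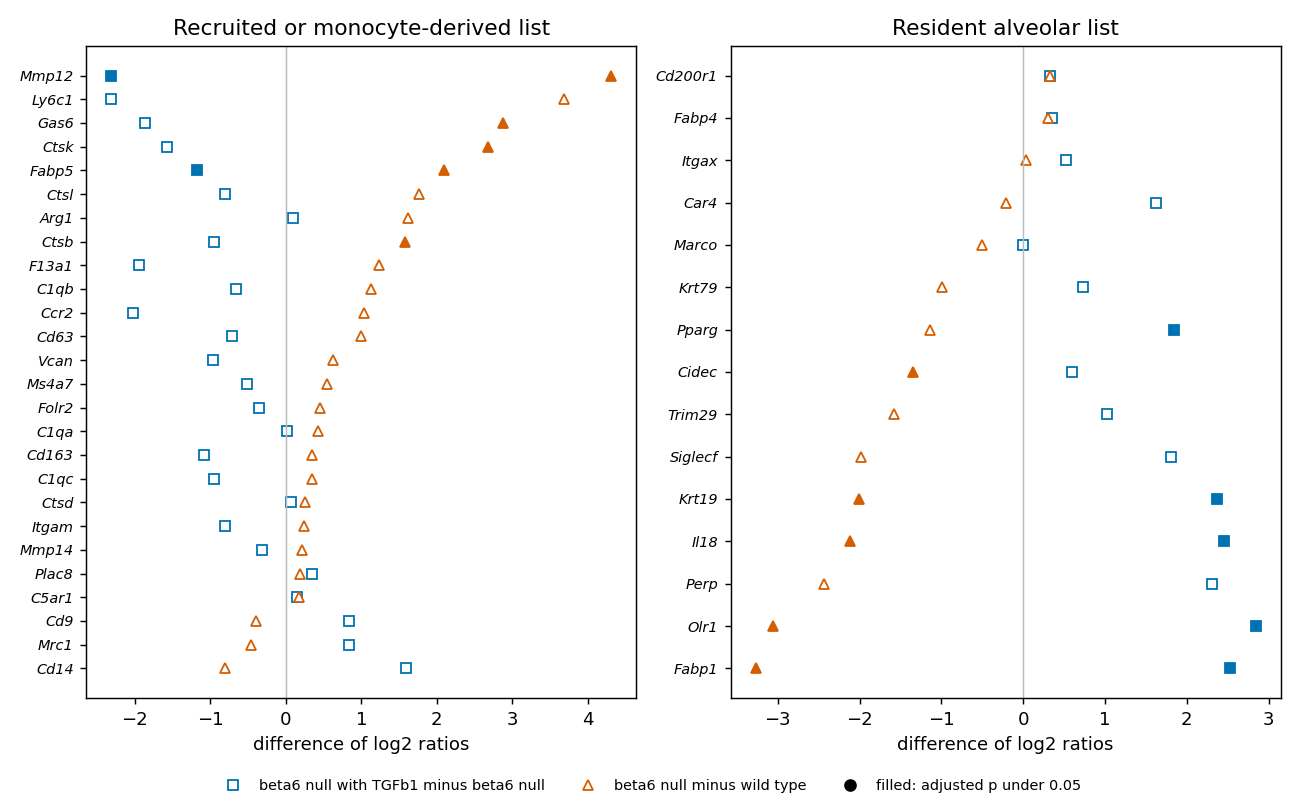
Differences of centred log2 ratios (horizontal axis) for each tested gene of the recruited list (left) and of the resident alveolar list (right), with squares for TGFb1 minus beta6 null and triangles for beta6 null minus wild type. Filled symbols passed the test. In the recruited list 23 of 26 triangles lie above 0, and in the resident list 12 of 15 lie below. Both lists were chosen with earlier results of these data known.

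**Figure D5:**
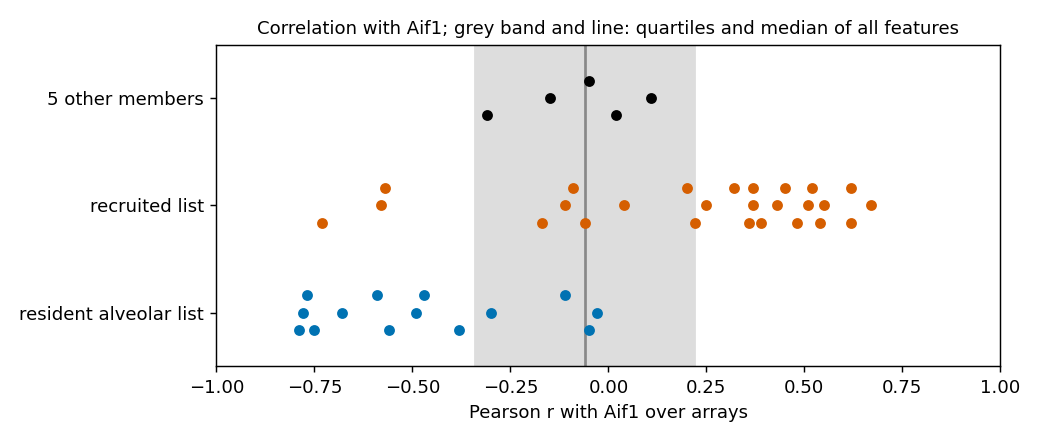
Pearson's r with Aif1 over the arrays (horizontal axis), 1 point for each gene of the 5 other markers, the recruited list and the resident alveolar list. The grey band spans the quartiles of all features, from -0.34 to 0.22, and holds all 5 markers, while the resident list lies at or below -0.03.

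Partners of the markers mostly did not pass. On the CSF1 receptor axis 0 of 9 passed in any comparison, and 4 of 9 were above 0 in beta6 null against wild type (median -0.08) and 6 of 9 with TGFb1 against beta6 null (median 0.20). The ligand Csf1 was at 1.47 in beta6 null against wild type (SE 0.36, adjusted p = 0.0794) and -1.01 with TGFb1 against beta6 null (SE 0.36, adjusted p = 0.204), and Spi1, which encodes PU.1, at 0.41 and -0.47. Values of the opposite sign were seen for Csf2ra, a chain of the GM-CSF receptor (-0.81 and 0.70), and the transcription factor Runx1 (-1.24 and 0.86). Among TREM2 partners and related receptors 0 of 9 passed (medians -0.35 and 0.44), with the adaptor Tyrobp at -0.09 (SE 0.26) and 0.34 (SE 0.26). Among lipid partners of apolipoprotein E 0 of 11 passed (medians -0.48 and 0.72), with the lipid exporter Abcg1 at -0.99 (SE 0.32, adjusted p = 0.21) and 0.81, the lipase Lpl at -1.07 and 1.43, and the lipid uptake receptor Cd36 at 0.86 and -0.57. Among fibronectin receptors and matrix genes 0 of 12 passed (medians -0.29 and 0.18), with the receptor Cd44 at -1.04 and 1.05, the matrix protein gene Tnc at -0.82 and 1.22 and the integrin chain Itgb3 at 0.64 and -1.64. Neither tested MiT factor, Mitf or Tfec, transcription factors known for driving Gpnmb, passed. Ltb, the 1 tested gene of the Aif1 neighbours, did not pass either. Among galectins and their ligands 1 of 8 passed (medians -0.24 and 0.09): Lgals1, galectin-1, rose in beta6 null against wild type (1.77, SE 0.33, adjusted p = 0.0162) and differed by -1.16 with TGFb1 against beta6 null (SE 0.33, adjusted p = 0.109). Of all features, 0.362% rose in beta6 null against wild type.

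Markers of other cells were read beside Aif1, and their part in its difference was not tested. The mean ratio of 8 dendritic cell markers ran from -0.76 to -0.31 with TGFb1, from 0.14 to 0.34 in beta6 null and from -0.94 to -0.09 in wild type, so the beta6 null arrays stood apart here as for Aif1. Each mean covers the markers with a value on that array, and how often means of other genes stand apart was not tested. In beta6 null against wild type 7 of 8 markers were above 0 (median 0.92), while Ly75 fell (-2.72, SE 0.36). With TGFb1 against beta6 null 2 of 8 were above 0 (median -0.76), and Itgae fell (-3.89, SE 0.73, 3 and 5 arrays). The mean of 9 lymphocyte markers ran from -0.80 to -0.05 with TGFb1, from 0.08 to 0.73 in beta6 null and from -0.61 to 0.41 in wild type, and 0 of 9 passed. Of 8 neutrophil markers S100a8 rose in beta6 null against wild type (2.13, SE 0.29), and the list means of all 3 groups overlapped. Of 9 lung epithelium markers Sftpc rose (2.18, SE 0.47) and Epcam fell (-2.34, SE 0.42) in beta6 null against wild type, and Epcam rose with TGFb1 against beta6 null (1.98, SE 0.42). Without 1 array Sftpc lost its call in 11 of 15 fits and the rise of Epcam in 11 of 15, and Itgae lost its own in 3 of 12. Of 5 fibroblast and endothelium markers, cells that also make fibronectin, 0 passed in any comparison. Beside these calls, 0.362% of all features rose and 0.588% fell in beta6 null against wild type. With TGFb1 against beta6 null the shares were 0.58% and 0.128%. The median r with Aif1 was 0.54 for dendritic cell markers (6 of 8 positive) and 0.44 for lymphocyte markers (7 of 9). It was 0.19 for neutrophil, 0.17 for lung epithelium and 0.08 for fibroblast and endothelium markers. With the group means taken out, the dendritic cell median was 0.03 (4 of 8 positive) and the lymphocyte median 0.29 (8 of 9).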

How the data were processed

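The deposited log2 ratios, 1 per probe and array, are the authors' values of a series matrix; the scanner, the dyes and any normalization by the authors are not given in the sources used here. Of 17225 probes, 30 control spots were left out by name, and 13972 of the others carried 1 symbol in the platform annotation, updated by Entrez ID where possible (13869). Each array was centred on its median, probes of 1 gene were averaged, and a feature was tested if each group had 3 or more arrays with a value (13273). All 6 measured members passed this filter, and each has 1 probe. limma 3.58.1 (R 4.3.3) then estimated 3 group means from the 15 arrays jointly (lmFit, eBayes), with Benjamini-Hochberg adjustment over all features and a threshold of 0.05. Differences are the first named group minus the second. Exact permutation tests used scipy 1.17.1, and p-values of correlations came from 100000 random reorderings of the arrays. The fit was tested on simulated data.

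Groups came from the labels, replicate numbers only name arrays, and array number limits the precision. The rule for named genes took the 9 members, up to 6 genes of each list that passed, and the 5 genes most like Aif1; partners that did not pass (Csf1, Spi1, Csf2ra, Runx1, Tyrobp, Abcg1, Lpl, Cd36, Cd44, Tnc, Itgb3, Mitf, Tfec, Ltb, Ly6c1, Ccr2 and Siglecf) were chosen after their values were seen. The members, lists and alternatives were chosen with earlier results of these data known. Promoters are RefSeq sequences of GRCm38.p6. Alternatives were quantile normalization, no centring, equal array spread, other filters, array weights, the title suffix as a block, Xist as a covariate, and arrays left out; their use on the lists was added after the values were seen.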

Additional observations from a re-analysis of the deposited data

Results flagged for a closer look

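In 2 of 16 sets of values (a marker in a group of 4 or 5 arrays) the lowest array stood far from the others, where chance gives about 1 in 20. Apoe was at -3.62 on wild type replicate 4, with the nearest array at -0.16, a gap of 0.736 of the range. Adgre1 was at -1.65 on wild type replicate 2, with the nearest array at -1.04, a gap of 0.753 of the range. The second array is 1 of the 2 widest.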

How the results depend on the processing

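No paired analysis was possible because the labels give no replicate numbers and pair no arrays. The members passed in no alternative in beta6 null against wild type or with TGFb1 against wild type. With TGFb1 against beta6 null the count of 1 became 0 under quantile normalization, with equal spread of the arrays, without the 2 arrays whose title numbers lie apart, after adding Xist to the model and when only features on all 15 arrays were tested, which leaves Aif1 out, and it ran from 0 to 1 without 1 array. The Aif1 difference was then -3.14, -3.00, -3.64 and -2.60 in the first 4, and -3.49 to -2.72 without 1 array. Of 375 alternatives run on the differences of the other 5 members, 352 kept their sign and side, 23 turned sign and 0 passed. In beta6 null against wild type Adgre1 turned to 0.14 (quantile) and 0.08 (equal spread). With TGFb1 against beta6 null Adgre1 turned to -0.35 and -0.25 in these, Apoe to -0.50 (array weights), -0.37 (without the 2 widest arrays) and, without 1 array, from -0.37 (without beta6 null replicate 1) to 0.68, and Gpnmb to 0.07 (without the 2 arrays numbered apart), 0.12 (Xist) and, without 1 array, from -0.57 to 0.02 (without TGFb1 replicate 5). With TGFb1 against wild type Fn1 turned to -0.40 (title suffix as a block) and, without 1 array, ran from -0.59 (without TGFb1 replicate 4) to 0.63. Trem2 there turned to -0.06 (array weights), -0.04 (Xist), and, without 1 array, ran from -0.44 (without TGFb1 replicate 3) to 0.61, with -0.07 without wild type replicate 1 and -0.00029 without wild type replicate 5, and Adgre1 to -0.21 (quantile), -0.17 (equal spread), -0.09 (array weights), -0.10 (without the 2 widest arrays), -0.04 (without TGFb1 replicate 3) and, without 1 array, from -0.10 (without wild type replicate 2) to 0.1. The r with Aif1 turned for Apoe to 0.20 (equal spread), 0.43 (without the 2 arrays farthest from the median of Aif1), 0.40 (without the 2 widest arrays) and 0.14 (Spearman), for Fn1 to 0.17 and Trem2 to -0.38 (without the 2 farthest arrays), for Gpnmb to -0.46 (group means removed) and -0.06 (equal spread), and for Adgre1 to 0.23 (equal spread). The cause of these changes was not tested. Of 24 called differences of genes in the lists, 24 kept their sign in all alternatives and 22 passed without the 2 widest arrays. Of the same 24, 13 passed in each fit without 1 array and 0 passed with the Xist covariate. Adding Xist widened the SEs, in beta6 null against wild type from 0.46 to 0.76 for Ctsk and from 0.34 to 0.54 for Fabp1. As Xist goes with the group, calls lost in these fits do not separate the 2.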
